A study of Mus musculus with 12 samples.

Results

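The genes described here encode the lysosome and the vacuolar proton pump (V-ATPase) of mouse peritoneal macrophages. They are 39 genes listed by name for their function, with earlier results of these data known but no threshold on a measured value, out of 48709 genes in the expression table. They comprise 15 pump subunit genes (6 of the membrane sector V0, 7 of the cytosolic sector V1 and 2 accessory), 3 genes of MiT/TFE transcription factors, 6 cathepsin genes and 5 genes of lipid or sugar hydrolases. The others are 3 genes of lumenal cofactors or carriers, 6 of lysosomal membrane proteins or channels, and the autophagy receptor gene Sqstm1. All 39 passed the filter on low counts, which left 12455 genes to be tested.

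RNA was sequenced in bulk from macrophages of wild-type mice (WT) and of mice lacking Usp5 in myeloid cells (MKO), at 0 h or at 3 h of lipopolysaccharide (LPS), a component of the outer membrane of Gram-negative bacteria. Usp5 encodes a deubiquitinase. Each genotype was sampled at each time in 3 libraries, which gives 4 groups named by genotype and hours. All 12 libraries carry LPS as their treatment label, those at 0 h included, and the design text names mock cells beside stimulated ones. The labels name no Cre driver, no floxed allele, no age and no dose of LPS, and do not say what alleles the WT mice carried. Nothing in them ties a replicate to an animal of its own. The p-values thus measure the spread between these samples only, which may be technical.

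Lysosomes are acidic organelles in which macrophages break down what they engulf and what autophagy delivers. The V-ATPase pumps protons into them: V1, on the cytosolic face, hydrolyses ATP, and V0, in the membrane, carries the protons. Acid activates cathepsins and other hydrolases inside. The transcription factors TFEB, TFE3 and MITF switch on many of these genes together when they enter the nucleus, and their kinase mTORC1, which is itself activated on the lysosomal surface, keeps them in the cytosol.

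Levels within a gene are given as CPM (read counts relative to a library size scaled by TMM factors), and levels between genes as the deposited TPM, which account for transcript length. Differences are log2 fold changes with their standard error (SE), from edgeR's quasi-likelihood test, and a gene was called at a p-value under 0.05 after adjustment over all 12455 genes. Genotype differences are MKO minus WT. TMM scaling sets the median of all genes near 0, and scaling by library size alone shifts that median by -0.23 for LPS in WT, -0.10 for LPS in MKO, 0.12 for genotype at 0 h, 0.24 for genotype at 3 h and 0.11 for their difference. Changes are therefore relative to the typical gene, and values under the other scaling are given beside many of them. That scaling turned the sign of 7 of the 39 genes for genotype at 0 h, 17 at 3 h, 24 for LPS in WT, 11 for LPS in MKO and 23 for the interaction. In bulk RNA, fewer cells of a kind and less RNA per cell cannot be told apart.

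Total counts ran from 14762709 to 20778862 per library. Before LPS the Usp5 level was 101, 112 and 121 CPM in WT against 28.7, 29.0 and 31.4 CPM in MKO, and 26.7% of its WT level remained at 0 h and 25.5% at 3 h. Of the macrophage markers, Adgre1, Itgam and Csf1r were high, at means of 2481, 1844 and 1496 CPM over all libraries. Lyz2, another macrophage marker, was low, at 23.8 CPM. It can share reads with its near-identical paralog Lyz1, and whether this lowered its count was not tested. Summed markers of B cells, of T and NK cells, of dendritic cells and of mesothelial cells each stayed at or under 14.9 CPM in every library, and those of neutrophils at 133 to 253 CPM. Some of these sums moved with genotype. Mast cell and eosinophil markers summed to 5.16 to 9.402 CPM over the WT libraries and 17.1 to 23.2 CPM over the MKO libraries, with Siglecf called higher at both times and Mcpt4, Tpsb2 and Cma1 at 0. Of 6 neutrophil markers tested 2 were called higher in MKO at 0 h and 3 at 3 h, and of 4 B cell markers 2 at 0 h, with none called lower. Of 3 mesothelial and fibroblast markers tested 1 was called lower at each time. All 7 summed to 3.49 to 5.83 CPM over the WT libraries and 1.75 to 3.14 CPM over the MKO libraries. At 3 h 1 marker was higher and 1 lower of 3 for T and NK cells, and likewise of 5 for dendritic cells. Of all genes 16.5% were higher and 16.4% lower at 0 h, and 19.8% and 23.0% at 3 h. In each 0 h group replicate 3 lay far from the other replicates, at -26.3 (WT) and 28.3 (MKO) on a principal component holding 5.35% of the variance. Summed nuclear RNA genes (Malat1, Neat1, Xist) moved with them, at 1105, 1063 and 1693 CPM in 0 h WT libraries and 1658, 1634 and 954 CPM in 0 h MKO libraries. The slope of expression on exon length did too, at -0.0664, -0.083 and 0.0194 in WT before LPS and 0.0456, 0.0731 and -0.107 in MKO. At 3 h it was -0.0238 to -0.00965 in WT and 0.0429 to 0.0843 in MKO. The median exon length was 3733 bases for the 39 genes and 4380 bases for all genes tested. The part of these quantities in the differences below was not tested.

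The 39 genes took 5.39% to 6.06% of all TPM in a library. Psap, the gene of the sphingolipid activator protein precursor prosaposin, was the highest, at 12046 ± 256 TPM in 0 h WT cells, followed by the aspartic protease gene Ctsd at 11138 ± 3.73 and the cysteine protease gene Ctsb at 8489.6 ± 87.2 TPM (mean ± SD, n = 3). The lowest were the transcription factor gene Tfeb, at 14.9 ± 1.89 TPM, the lysosomal calcium channel gene Mcoln1, at 27.7 ± 3.69, and Atp6v1h, which encodes the regulatory H subunit of V1, at 30.99 ± 0.498. Levels of these genes in WT cells thus spanned nearly 3 orders of magnitude, and the pump subunits lay between 30.99 and 1032 TPM, with Atp6v0c, which encodes the proton-carrying ring subunit, at the top.

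**Figure D1:**
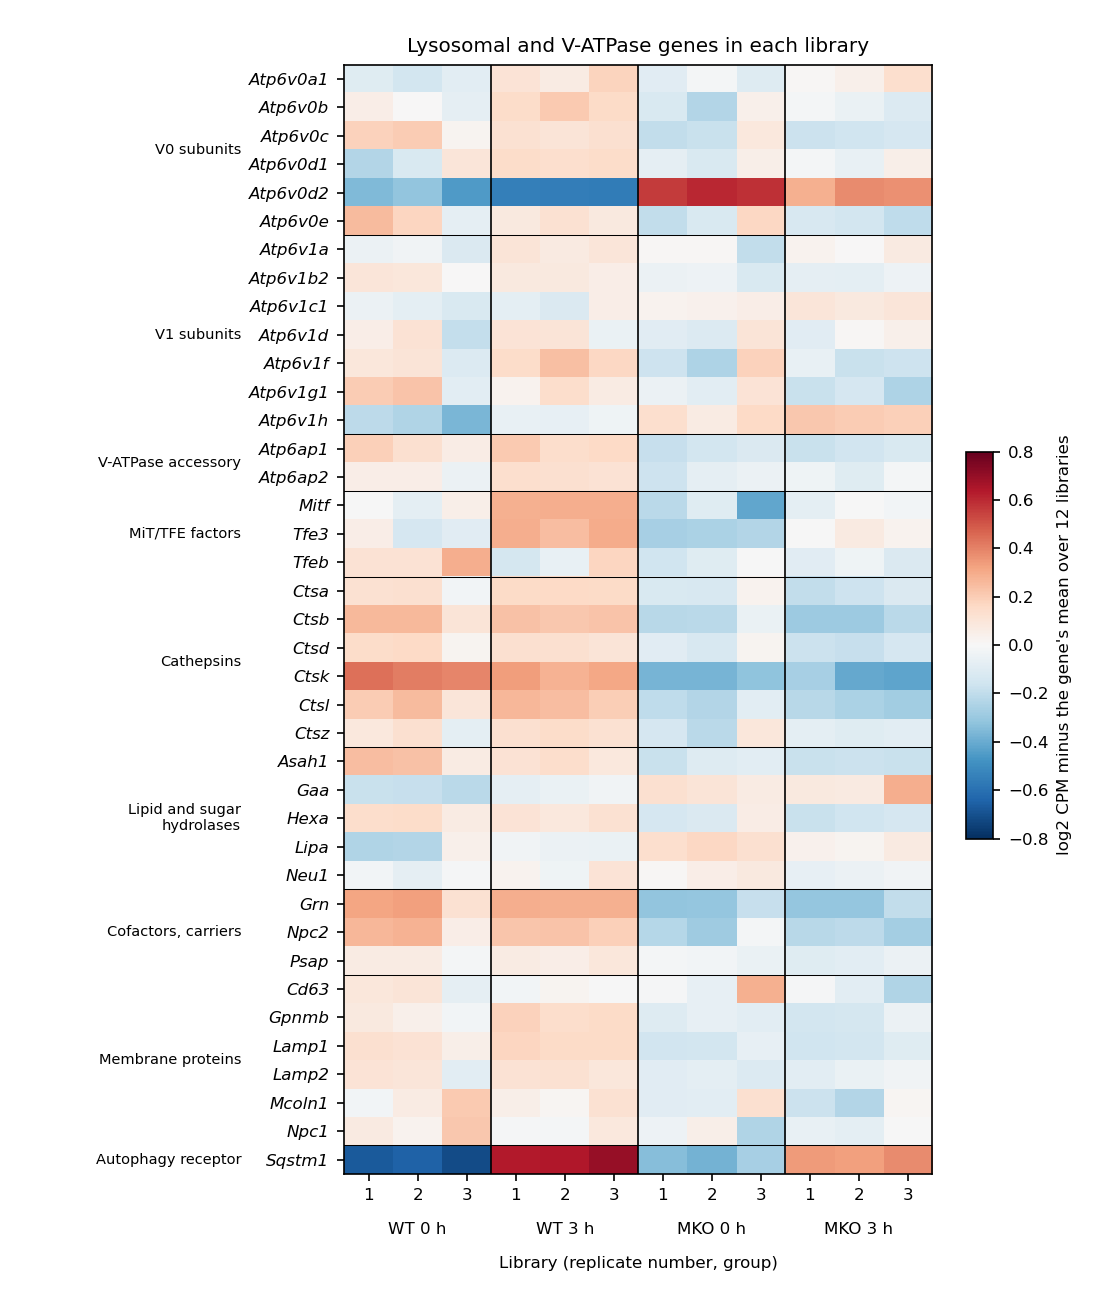
Log2 CPM of each of the 39 genes in each of the 12 libraries, minus that gene's mean over the libraries, with genes in rows by role and libraries in columns by group. Atp6v0d2 (higher in MKO) and Sqstm1 (higher at 3 h) have the widest ranges of the 39. Ctsk, Ctsb, Ctsl, Grn and Npc2 are lower in both MKO groups, and replicate 3 of each 0 h group differs from its group mates for many genes.

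Most genes of the set that were called between the genotypes were lower in MKO macrophages relative to the typical gene, though not with scaling by library size alone. The pump subunit gene Atp6v0d2 was 1.94 times as high in MKO as in WT before LPS, under a fit in which 32.9% of all genes were called. At 0 h 15 genes were called lower and 5 higher, where 16.4% and 16.5% of all genes tested were called, and the median difference was -0.13 for the set and -0.00 for all genes. At 3 h 25 were called lower and 3 higher, beside 23.0% and 19.8% of all genes (42.8% in either direction), with medians of -0.23 and -0.01. Scaled by library size, the counts were 8 lower and 8 higher at 0 h, beside 9.59% and 25.8% of all genes, and 5 lower and 10 higher at 3 h, beside 9.63% and 43.5%. Under each scaling 28 of 39 genes at 0 h and 34 of 39 at 3 h lay below the median of all genes.

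Groups did not overlap, with every MKO library below every WT library, for 15 genes at 0 h and 26 at 3 h, and with every MKO library above for 7 and 5. The shares of all genes were 19.8% and 32.5% lower, and 19.6% and 28.7% higher. At 0 h the calls of 7 genes held under all alternatives run, Atp6v0d2, Atp6v1h and Sqstm1 higher and Ctsb, Ctsk, Ctsl and Grn lower. At 3 h those of 6 did, Atp6v0d2 higher and Ctsb, Ctsk, Ctsl, Npc2 and Grn lower. The count of lower genes at 0 h was 9 without replicate 1 of WT 0 h, 8 without replicate 1 of MKO 0 h, and 26 without both libraries that stand apart. When replicates 1 and 2 of each group, the closest pair, were summed as 1 sample, 4 genes were lower and 3 higher at 0 h, and 15 lower and 1 higher at 3 h.

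**Figure D2:**
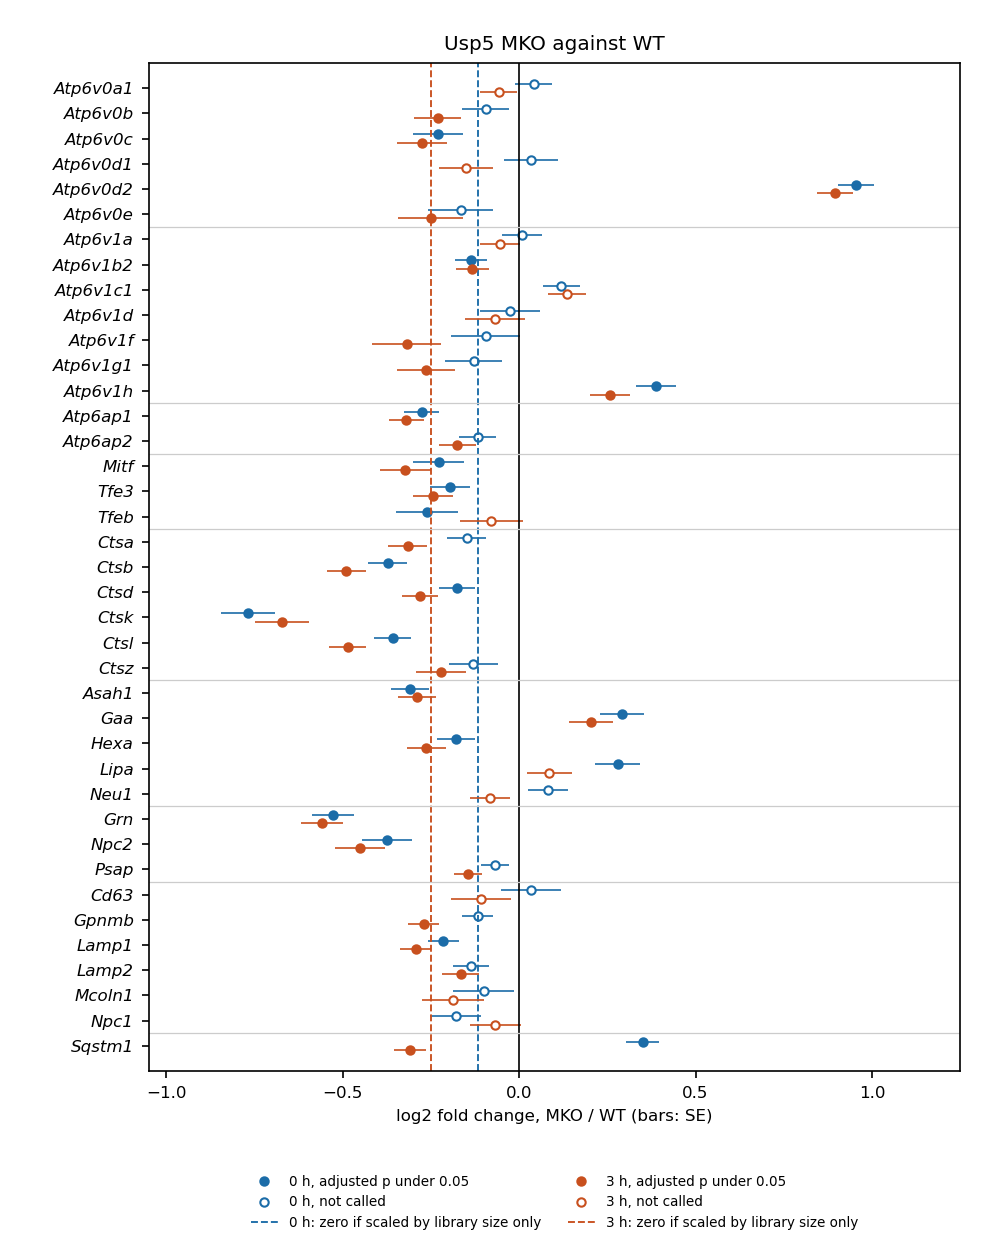
Log2 fold change of MKO over WT with its SE for each of the 39 genes, at 0 h (blue) and at 3 h (orange), filled where called. Dashed lines mark where 0 would lie with scaling by library size alone, and a point between the solid line and the dashed line of its time changes direction under it. Atp6v0d2, Atp6v1h and Gaa lie right of 0 at both times, and Ctsk, Grn, Ctsb, Ctsl and Npc2 lie left of both lines.

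Of the MiT/TFE factors, Mitf and Tfe3 were lower in MKO at both times and Tfeb at 0 h, by small amounts, but not with scaling by library size alone. Tfe3 was at 153, 135 and 139 CPM in WT and 123, 124 and 126 in MKO before LPS. After 3 h of LPS the WT libraries held 181, 175 and 182, and the MKO libraries 148, 156 and 151. The MKO libraries were below the WT libraries at each time, with a difference of -0.20 (SE 0.057, adjusted p = 0.017) before LPS and -0.24 (SE 0.057, adjusted p = 0.0032) after it. Mitf, best known for its role in pigment cells and osteoclasts, was at 122, 116 and 126 CPM in WT cells before LPS, and 105, 115 and 91.7 CPM in MKO cells. The 3 h values were 149, 149.9 and 150.1 CPM in WT and 116, 122 and 121 CPM in MKO. The genotypes did not overlap at either time, with -0.23 (SE 0.072, adjusted p = 0.026) before LPS and -0.32 (SE 0.072, adjusted p = 0.0025) after it. Tfeb was the least abundant of the 3, at 29.1, 29.1 and 32.9 CPM in the 0 h WT libraries, against 24.1, 25.1 and 26.8 CPM in MKO. With LPS these were 24.3, 25.8 and 30.2 CPM and 25.2, 26.2 and 24.7 CPM. It was lower before LPS, at -0.26 (SE 0.088, adjusted p = 0.034), and the 3 h groups overlapped (-0.08, adjusted p = 0.50, or 0.17 when scaled by library size). Under that scaling none of these 5 calls remained, and Tfe3 at 3 h was at 0.0061. The 0 h calls were also lost in 2 to 5 of the 12 fits that each left out 1 library. That of Tfe3 was lost without replicate 1 of WT 0 h, or replicate 1 of MKO 0 h (adjusted p 0.053 to 0.099). For Mitf this held without replicate 1 or 3 of WT 0 h, or replicate 1 or 3 of MKO 0 h, or replicate 2 of MKO 3 h (adjusted p 0.054 to 0.099), and for Tfeb without replicate 3 of WT 0 h, or replicate 1 or 2 of MKO 0 h, or replicate 2 of MKO 3 h (adjusted p 0.056 to 0.11).

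MiT/TFE factors bind the E-box CACGTG, and the longer form TCACGTG is part of the element shared by many lysosomal promoters. RefSeq promoter windows (GRCm38.p6, 250 bases before to 50 after a transcript start) were matched for 31 of the 39 genes. CACGTG, which reads the same on both strands, was present in 10 of these 31 (32.3%) and in 8.09% of 27025 genes with a window. TCACGTG, searched on both strands and always overlapping a CACGTG, was in 9 of 31 (29.0%) and 4.29%. The 27025 genes were not limited to the 12455 tested here, as the 31 are, so these shares are of unlike sets. Genes with and without CACGTG differed little in their genotype medians: -0.12 (10 genes) and -0.13 (21 genes) at 0 h, and -0.24 for both at 3 h. Of the 10, 3 were called lower and 1 higher at 0 h, and 6 and 1 at 3 h. Of the 21, 9 were called lower and 2 higher at 0 h, and 15 and 0 at 3 h. A match describes the letters of the window only, and no match says only that they are not in it.

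The windows of the 4 called genes with CACGTG and the largest genotype difference follow, 5′ to 3′ on the strand of the gene, because they hold the motif among genes that were called in opposite directions. Capitals mark CACGTG, with a flanking T or A where it makes the longer form. Lamp1, at chr8:13158911-13159210 (plus strand), holds 4 copies, whose first bases lie 61, 45, 28 and 15 bases before the start (-61, -45, -28 and -15), and was lower in MKO. Ctsa, at chr2:164833523-164833822 (plus strand), holds 2 copies of the longer form at -12 and 5, in the second of its windows, and was lower at 3 h. Ctsl, at chr13:64370471-64370770 (minus strand), holds 1 copy at -236, and its RefSeq start lies outside the span of the gene in the deposited table. Gaa, at chr11:119267713-119268012 (plus strand), holds 1 copy at -140 and was higher in MKO.
Lamp1: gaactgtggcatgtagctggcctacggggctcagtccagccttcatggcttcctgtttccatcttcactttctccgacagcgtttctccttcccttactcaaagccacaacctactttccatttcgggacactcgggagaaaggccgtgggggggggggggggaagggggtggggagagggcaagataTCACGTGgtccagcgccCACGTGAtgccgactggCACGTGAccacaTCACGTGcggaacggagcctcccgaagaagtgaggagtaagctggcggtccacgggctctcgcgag
Ctsa: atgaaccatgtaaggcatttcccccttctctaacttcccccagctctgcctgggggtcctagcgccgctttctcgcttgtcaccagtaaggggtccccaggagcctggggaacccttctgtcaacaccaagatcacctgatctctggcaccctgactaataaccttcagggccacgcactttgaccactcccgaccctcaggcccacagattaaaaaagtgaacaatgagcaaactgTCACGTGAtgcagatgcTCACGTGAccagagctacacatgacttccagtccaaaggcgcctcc
Ctsl: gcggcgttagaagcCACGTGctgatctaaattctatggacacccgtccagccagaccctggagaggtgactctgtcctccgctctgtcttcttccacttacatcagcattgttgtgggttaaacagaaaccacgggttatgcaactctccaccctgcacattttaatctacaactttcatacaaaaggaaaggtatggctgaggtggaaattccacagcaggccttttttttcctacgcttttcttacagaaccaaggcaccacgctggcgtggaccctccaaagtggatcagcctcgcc
Gaa: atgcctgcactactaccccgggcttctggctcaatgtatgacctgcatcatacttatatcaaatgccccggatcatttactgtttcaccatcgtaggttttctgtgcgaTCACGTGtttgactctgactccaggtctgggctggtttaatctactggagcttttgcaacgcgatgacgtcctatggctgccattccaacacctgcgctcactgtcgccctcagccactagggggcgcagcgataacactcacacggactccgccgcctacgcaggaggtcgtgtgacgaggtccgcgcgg

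Among the 15 pump subunit genes the genotypes differed most in Atp6v0d2, an alternative form of the d subunit of V0 known from osteoclasts, dendritic cells and macrophages. It lies at chr4:19876841-19922605 (mm10) and was at 208, 213 and 194 CPM in WT at 0 h, where MKO had 391, 403 and 398 CPM. At 3 h WT had 182, 181 and 180.2 CPM and MKO had 323, 346 and 342 CPM. Every MKO library was above every WT library. The difference was 0.95 (SE 0.051, adjusted p = 1.6e-08) before LPS and 0.90 (SE 0.051, adjusted p = 1.0e-08) after it, folds of 1.94 and 1.86. The widespread form, Atp6v0d1, at chr8:105524465-105566047, was at 124, 134 and 156 CPM in WT and 139, 134 and 150.3 in MKO before LPS. After 3 h of LPS the WT libraries held 161, 159.9 and 161, and the MKO libraries 144, 139.96 and 150.5. The genotypes overlapped before LPS (0.03, adjusted p = 0.78), and at 3 h the MKO libraries were below without a call (-0.15, adjusted p = 0.13, or 0.099 when scaled by library size). The ratio of Atp6v0d2 to Atp6v0d1 TPM within a library does not depend on scaling. It was 1.11, 1.05 and 0.822 in WT and 1.86, 1.99 and 1.75 in MKO before LPS. With LPS it was 0.745, 0.746 and 0.738 in WT and 1.48, 1.63 and 1.499 in MKO. The transcript of the alternative form was thus about level with or below that of the widespread form in WT and above it in all 6 MKO libraries.

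Osteoclast markers were in part higher in the same libraries. Of 6 tested (of 8), Dcstamp (1.71 at 0 h and 1.97 at 3 h), Ocstamp (3.26 and 3.14) and Itgb3 (1.32 and 1.46) were called higher in MKO, and Acp5 was lower (-0.57 and -0.31). The summed level of the 8 markers was 186 to 195 CPM in WT before LPS, against 199.96 to 203 in MKO. After LPS it was 182 to 199 CPM against 221 to 233, and the defining marker Calcr had no count in any library. Dcstamp and Ocstamp encode membrane proteins needed for the fusion of osteoclast precursors. Their part in the Atp6v0d2 difference was not tested.

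Of the other V0 genes, Atp6v0c was lower, at -0.23 (SE 0.070, adjusted p = 0.021) before LPS and -0.28 (SE 0.070, adjusted p = 0.0058) after it, but not called with scaling by library size alone. Its 3 h level was 1246 ± 12.6 CPM in WT against 1029 ± 13.5 CPM in MKO (mean ± SD, n = 3). The membrane subunit gene Atp6v0b was lower at 3 h, at -0.23 (SE 0.067, adjusted p = 0.013), or 0.021 with scaling by library size alone, and was not called at 0 h (-0.10, adjusted p = 0.30, or 0.022 under that scaling). The same held for Atp6v0e, at -0.25 (SE 0.092, adjusted p = 0.041), or 0.00011 under that scaling, and -0.17 (adjusted p = 0.19) at 0 h. Atp6v0a1, which encodes a large subunit that anchors V1 to V0, was at 371, 359 and 375 CPM in WT cells before LPS, and 373, 393 and 370.2 CPM in MKO cells. The 3 h values were 428, 415 and 449.9 CPM in WT and 399, 407 and 436 CPM in MKO. The genotypes overlapped at both times, at 0.04 (adjusted p = 0.59) and -0.06 (adjusted p = 0.40), but scaled by library size the gene was called higher in MKO (0.16 and 0.19). Without 1 library calls were lost, for Atp6v0c at 0 h without replicate 1 or 2 of WT 0 h, or replicate 1 or 2 of MKO 0 h (adjusted p 0.077 to 0.098). The call of Atp6v0b at 3 h was lost without replicate 2 of WT 3 h, or replicate 2 or 3 of MKO 3 h (adjusted p 0.050 to 0.054), and that of Atp6v0e at 3 h without any replicate of WT 3 h, or any replicate of MKO 3 h (adjusted p 0.076 to 0.12).

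In V1, Atp6v1h was the 1 gene of 7 higher in MKO at each time, or 1 of 2 at 0 h and of 4 at 3 h with scaling by library size alone. It was at 114, 111 and 102 CPM in the 0 h WT libraries, against 144, 137 and 147 CPM in MKO. With LPS these were 126, 126 and 128 CPM and 153, 151 and 149.99 CPM, with every MKO library above every WT library at each time. The differences were 0.39 (SE 0.056, adjusted p = 0.00012) before LPS and 0.26 (SE 0.056, adjusted p = 0.0020) after it, and the second was not called when replicates 1 and 2 were summed. Atp6v1b2, the catalytic sector's B subunit gene, was lower, at -0.14 (SE 0.046, adjusted p = 0.034) and -0.13 (SE 0.046, adjusted p = 0.031), but called higher at 3 h with scaling by library size alone (0.12). At 3 h Atp6v1f (F subunit of the rotor stalk) was lower, at -0.32 (SE 0.097, adjusted p = 0.017), and so was Atp6v1g1 (G subunit of the outer stalk), at -0.26 (SE 0.081, adjusted p = 0.017). Neither was called with scaling by library size alone (-0.067 and -0.013). Atp6v1a, which encodes the subunit that hydrolyses ATP, was at 0.01 (adjusted p = 0.94) and -0.05 (adjusted p = 0.47), but called higher at 3 h when scaled by library size (0.20). Atp6v1c1, of the C subunit that regulates assembly, was at 0.12 (adjusted p = 0.10) and 0.14 (adjusted p = 0.053), and Atp6v1d, of the rotor stalk, at -0.03 (adjusted p = 0.85) and -0.07 (adjusted p = 0.54), neither called. Scaled by library size, Atp6v1c1 was called higher at both times (0.24 and 0.39), and Atp6v1d turned at both without a call (0.092 and 0.18). The calls of Atp6v1b2 were lost at 0 h without replicate 1 or 2 of WT 0 h, or replicate 1 or 2 of WT 3 h, or replicate 1 or 3 of MKO 0 h, or replicate 1 or 2 of MKO 3 h (adjusted p 0.052 to 0.12), and at 3 h without any replicate of WT 3 h, or any replicate of MKO 3 h (adjusted p 0.050 to 0.17). At 3 h the call of Atp6v1f was lost without replicate 2 of WT 3 h, or replicate 2 or 3 of MKO 3 h (adjusted p 0.058 to 0.077), and that of Atp6v1g1 without replicate 2 of WT 3 h, or replicate 3 of MKO 3 h (adjusted p 0.069 to 0.070).

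Both accessory genes were lower at 3 h, and neither was called there with scaling by library size alone. Atp6ap1, needed for assembly of the pump, was at 446 ± 20.6 CPM in 0 h WT against 369 ± 8.78 CPM in MKO, a difference of -0.28 (SE 0.049, adjusted p = 0.00064). At 3 h the difference was -0.32 (SE 0.049, adjusted p = 0.00013). Atp6ap2, also known as the prorenin receptor gene, was at -0.12 (adjusted p = 0.10) and -0.18 (SE 0.052, adjusted p = 0.014), and the second call was lost without replicate 2 of MKO 3 h (adjusted p = 0.12). Its values were 0.00011 and 0.075 with scaling by library size alone. In all, 3 of 15 pump genes were called lower and 2 higher at 0 h, and 8 and 2 at 3 h, but 1 lower and 4 higher at 0 h and 0 and 6 at 3 h with scaling by library size alone. The first counts were 20% lower and 13.3% higher at 0 h, beside 16.4% and 16.5% of all genes. At 3 h they were 53.3% and 13.3%, beside 23.0% and 19.8%. With library size scaling 9.59% of all genes were lower and 25.8% higher at 0 h, and 9.63% and 43.5% at 3 h. The summed level of the 15 depended on the unit as well. In CPM it was 5081 ± 226 in WT and 4941 ± 149.6 in MKO before LPS, and 5292 ± 25.7 and 4916 ± 64.3 at 3 h. In TPM it was 4592 ± 17.3 and 4961 ± 97.3, and 4120.5 ± 10.3 and 4732 ± 67.8, higher in every MKO library.

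Of the cathepsin genes 4 of 6 were lower in MKO at 0 h and 6 of 6 at 3 h, or 3 and 3 when scaled by library size. Of all genes 16.4% were lower at 0 h and 23.0% at 3 h, or 9.59% and 9.63% under that scaling. The median differences of the 6 cathepsin genes were -0.27 and -0.40. Ctsk, a collagen-degrading cysteine protease gene best known from osteoclasts, was the least abundant of the 6, at 19.5, 18.97 and 18.7 CPM in WT at 0 h, where MKO had 11.1, 11.04 and 11.5 CPM. At 3 h WT had 18.1, 17.3 and 17.8 CPM and MKO had 11.9, 10.8 and 10.7 CPM. All 6 MKO libraries were below all WT libraries, with differences of -0.77 (SE 0.077, adjusted p = 4.6e-06) before LPS and -0.67 (SE 0.078, adjusted p = 1.0e-05) after it. Ctsb was at 15042, 15040.1 and 13504 CPM in WT and 10775, 10809.5 and 12103 in MKO before LPS. After 3 h of LPS the WT libraries held 14769, 14604 and 14727, and the MKO libraries 10305, 10274 and 10826. It was lower, at -0.37 (SE 0.055, adjusted p = 0.00014) and -0.49 (SE 0.055, adjusted p = 7.7e-06), with no overlap at either time, although replicate 3 of each 0 h group lay closest to the other genotype. Ctsl, another cysteine protease gene, which also processes antigens and the invariant chain, was at 2769, 2868 and 2566 CPM in WT cells before LPS, and 2090.4, 2040.4 and 2267 CPM in MKO cells. The 3 h values were 2889, 2854 and 2751 CPM in WT and 2063, 2019 and 1982 CPM in MKO. Its differences were -0.36 (SE 0.053, adjusted p = 0.00014) and -0.49 (SE 0.053, adjusted p = 6.0e-06), again without overlap.

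Ctsd, the main aspartic protease gene of lysosomes, was at 9694, 9779.9 and 8885 CPM in the 0 h WT libraries, against 8205, 7995 and 8904 CPM in MKO. With LPS these were 9576, 9547 and 9394 CPM and 7774, 7715 and 7992 CPM. The 0 h groups overlapped through replicate 3 of each (-0.18, SE 0.050, adjusted p = 0.015), and the 3 h groups did not (-0.28, SE 0.050, adjusted p = 0.00047). Ctsa, whose product is also a protective protein for other lysosomal enzymes, was lower at 3 h, at -0.32 (SE 0.056, adjusted p = 0.00042), and not called at 0 h (-0.15, adjusted p = 0.055). Ctsz, a carboxypeptidase gene, was lower at 3 h, at -0.22 (SE 0.071, adjusted p = 0.021), or 0.030 with scaling by library size alone, and not called at 0 h (-0.13, adjusted p = 0.18). Ratios within a library, chosen after values were seen, gave an order among cathepsins that no scaling can change. Ctsb over Ctsd in TPM was 0.754 to 0.7698 in WT and 0.651 to 0.674 in MKO before LPS, and 0.759 to 0.778 and 0.658 to 0.672 at 3 h, so that Ctsb was lower against Ctsd in every MKO library. Scaled by library size, Ctsd (-0.030) and Ctsa (-0.065) were not called at 3 h, nor was Ctsd at 0 h (-0.058). The call of Ctsd at 0 h was lost without replicate 1 or 2 of WT 0 h, or replicate 1 or 2 of MKO 0 h (adjusted p 0.057 to 0.067). That of Ctsz at 3 h was lost without replicate 1 or 2 of WT 3 h, or any replicate of MKO 3 h (adjusted p 0.053 to 0.086). Exons of Ctsa overlap those of Pltp on the opposite strand, which had 131573 counts in all against 193327 for Ctsa and was itself lower (-0.60 and -0.67). Since strand use is not stated, the counts of this pair are uncertain.

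**Figure D3:**
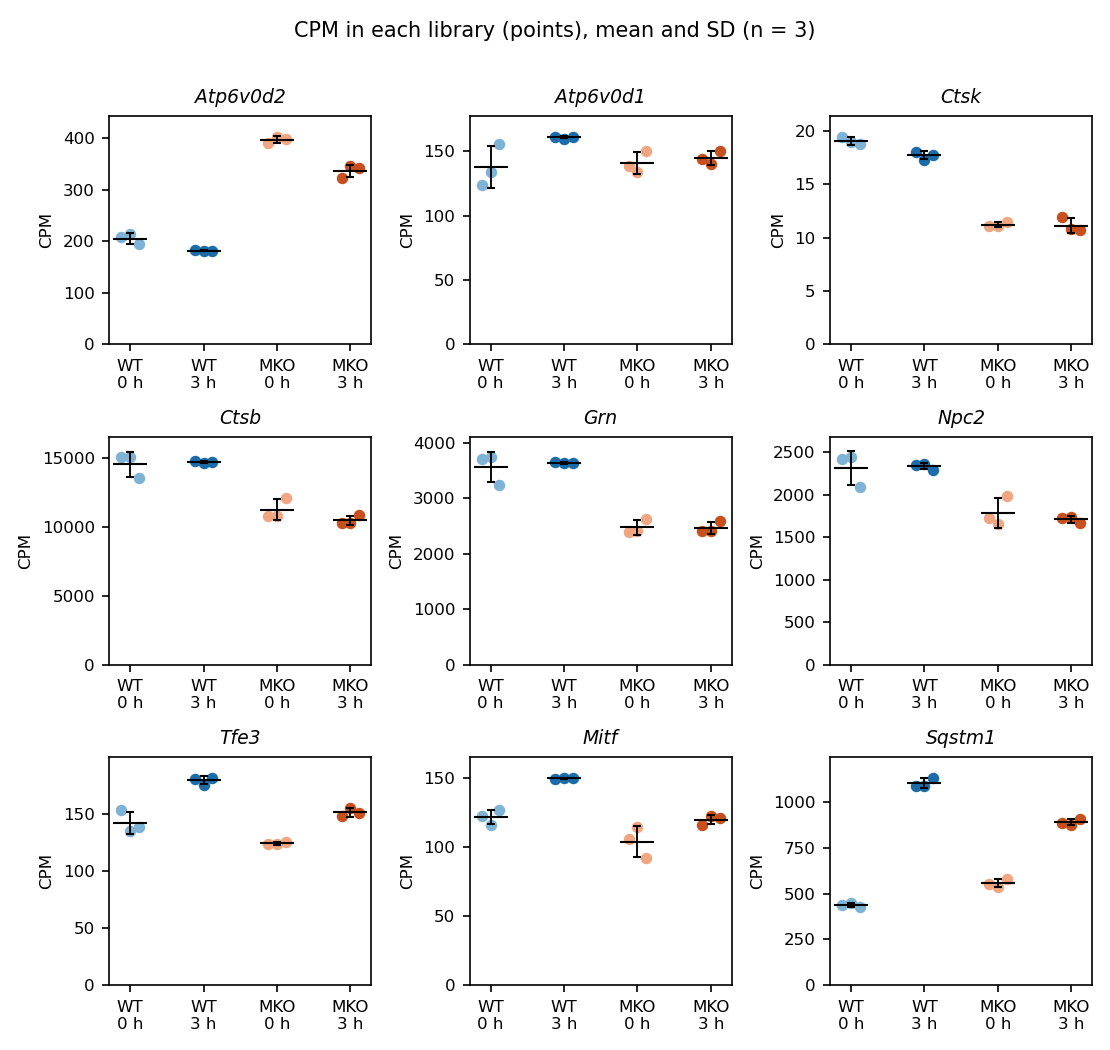
CPM of 9 genes in each library (points), with the group mean (bar) and SD, n = 3 libraries a group, on axes that start at 0. Atp6v0d2 is higher in all MKO libraries while Atp6v0d1 overlaps at 0 h, and Ctsk, Ctsb, Grn and Npc2 are lower in all MKO libraries. Sqstm1 is higher in MKO at 0 h and lower at 3 h, where scaling by library size alone leaves it not called (-0.059) and puts Tfe3 at 0.0061.

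Of the lumenal cofactor and carrier genes, Grn and Npc2 were lower in MKO. Psap was lower at 3 h by a smaller amount, but called higher there with scaling by library size alone (0.11). Grn encodes progranulin, which is cut to granulins in lysosomes and is needed for normal hydrolase function, and its loss causes neuronal ceroid lipofuscinosis in humans. It was at 3712, 3741 and 3248 CPM in WT at 0 h, where MKO had 2390.2, 2409 and 2621 CPM. At 3 h WT had 3646, 3635 and 3628 CPM and MKO had 2405, 2403 and 2597 CPM. No MKO library reached a WT library, and the differences were -0.53 (SE 0.059, adjusted p = 1.2e-05) before LPS and -0.56 (SE 0.059, adjusted p = 4.4e-06) after it, folds of 0.69 and 0.68. Npc2, whose product carries cholesterol from the lumen to the membrane protein NPC1, was at 2426, 2444 and 2091 CPM in WT and 1724, 1657 and 1992 in MKO before LPS. After 3 h of LPS the WT libraries held 2355, 2367 and 2297, and the MKO libraries 1728, 1741 and 1667. It was lower without overlap, at -0.37 (SE 0.070, adjusted p = 0.00097) and -0.45 (SE 0.070, adjusted p = 0.00015), and the 0 h call was lost when replicates 1 and 2 were summed. Psap was at -0.07 (adjusted p = 0.21) at 0 h, or 0.050 when scaled by library size, and at -0.14 (SE 0.040, adjusted p = 0.0092) at 3 h, a call lost without replicate 2 of MKO 3 h (adjusted p = 0.071). The ratio of Grn to Psap TPM, chosen after values were seen, was 0.223 to 0.243 in WT and 0.164 to 0.185 in MKO before LPS, and 0.232 to 0.239 and 0.173 to 0.183 at 3 h, lower in every MKO library.

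Of the 5 lipid and sugar hydrolase genes 2 were higher and 2 lower at 0 h, and 1 higher and 2 lower at 3 h, or 3 and 1, and 3 and 0, with scaling by library size alone. Gaa, the acid alpha-glucosidase gene that is lost in Pompe disease, was at 122 ± 1.64 CPM in 0 h WT against 149 ± 3.201 CPM in MKO, higher by 0.29 (SE 0.063, adjusted p = 0.0025), and by 0.20 (SE 0.062, adjusted p = 0.017) at 3 h. Lipa, which encodes the acid lipase for cholesteryl esters and triglycerides, was at 784, 788 and 951 CPM in 0 h WT against 1014, 1035 and 1013 CPM in MKO. It was higher by 0.28 (SE 0.064, adjusted p = 0.0040), with replicate 3 of WT closest to MKO, and was not called at 3 h (0.09, adjusted p = 0.30), but was when scaled by library size (0.34). Asah1, the acid ceramidase gene, was lower, at -0.31 (SE 0.054, adjusted p = 0.00054) and -0.29 (SE 0.054, adjusted p = 0.00063). So was Hexa, which encodes the alpha subunit of beta-hexosaminidase, at -0.18 (SE 0.055, adjusted p = 0.021) and -0.26 (SE 0.055, adjusted p = 0.0015). Neither was called at 3 h when scaled by library size (-0.039 and -0.012), nor was Hexa at 0 h (-0.062). The sialidase gene Neu1 was at 0.08 (adjusted p = 0.29) and -0.08 (adjusted p = 0.25), and called higher at both times when scaled by library size (0.20 and 0.17). The 0 h call of Hexa was lost without replicate 1 or 2 of WT 0 h, or replicate 1 or 2 of MKO 0 h (adjusted p 0.074 to 0.099), and the 3 h call of Gaa without replicate 1 or 2 of WT 3 h, or replicate 3 of MKO 3 h (adjusted p 0.052 to 0.10).

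Of 6 membrane protein genes, Lamp1 was lower at both times and Lamp2 and Gpnmb at 3 h, but with scaling by library size alone only Lamp1 at 0 h was. Lamp1 and Lamp2 encode the most abundant glycoproteins of the lysosomal membrane. Lamp1 was at 2237, 2219 and 2117 CPM in WT cells before LPS, and 1847, 1853 and 1962 CPM in MKO cells. The 3 h values were 2311, 2281 and 2279.96 CPM in WT and 1838, 1850.3 and 1919 CPM in MKO. Every MKO library was below every WT library, with differences of -0.22 (SE 0.044, adjusted p = 0.0017) and -0.29 (SE 0.044, adjusted p = 0.00010), the second at -0.043 when scaled by library size. Lamp2 was at -0.14 (adjusted p = 0.060) and -0.17 (SE 0.052, adjusted p = 0.020), or 0.085 at 3 h when scaled by library size. Its call was lost without replicate 1 or 2 of WT 3 h, or replicate 1 or 2 of MKO 3 h (adjusted p 0.060 to 0.093). Gpnmb, a transmembrane glycoprotein gene induced in macrophages under lysosomal stress, was among the most abundant of the set, at 8272 ± 118 CPM in WT and 6860.5 ± 268 CPM in MKO at 3 h. It was lower there, at -0.27 (SE 0.043, adjusted p = 0.00020), or -0.019 when scaled by library size, and not called at 0 h (-0.12, adjusted p = 0.051, or 0.00024 under that scaling). The tetraspanin gene Cd63 was at 0.03 (adjusted p = 0.80) and -0.11 (adjusted p = 0.33), neither called. The cholesterol exporter gene Npc1 was at -0.18 (adjusted p = 0.073) and -0.07 (adjusted p = 0.48), and Mcoln1 at -0.10 (adjusted p = 0.41) and -0.19 (adjusted p = 0.098), again not called. At 3 h Cd63 (0.14), Npc1 (0.18) and Mcoln1 (0.063) turned without a call when scaled by library size, and so did Mcoln1 at 0 h (0.014). Exons of Npc1 overlap those of Rmc1 on the opposite strand, which had 10191 counts against 48256.

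Over 3 h of LPS the largest change among these genes was that of Sqstm1, the gene of p62, which binds ubiquitin and carries its cargo to autophagosomes. Relative to the typical gene, 7 genes rose in WT (17.9%) and 1 fell (2.56%), beside 17.8% and 14.6% of all genes (32.5% in either direction). The share of rises in WT was thus that of all genes, and the share of falls was lower. In MKO 2 rose (5.13%) and 1 fell (2.56%), beside 9.75% and 6.08% (15.8%). Scaled by library size, 1 rose and 26 fell in WT, beside 9.70% and 41.8% of all genes, and 2 rose and 13 fell in MKO, beside 6.72% and 14.1%. The median change of the set was 0.05 in WT and -0.01 in MKO, and that of all genes -0.00 and -0.01. Groups at 0 h and 3 h did not overlap for 14 higher and 2 lower genes in WT, where 24.1% and 21.5% of all genes did not, and for 6 and 5 in MKO, where 19.3% and 15% did not. The LPS comparisons share no library with each other, but each shares its groups with both genotype comparisons. The 1 fall in WT was lost without replicate 1 or 2 of WT 0 h, and 2 genes fell without replicate 3 of WT 0 h or of WT 3 h. In MKO 2 fell without replicate 3 of WT 0 h. When replicates 1 and 2 were summed, 2 genes rose and 0 fell in WT, and 1 rose and 0 fell in MKO.

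**Figure D4:**
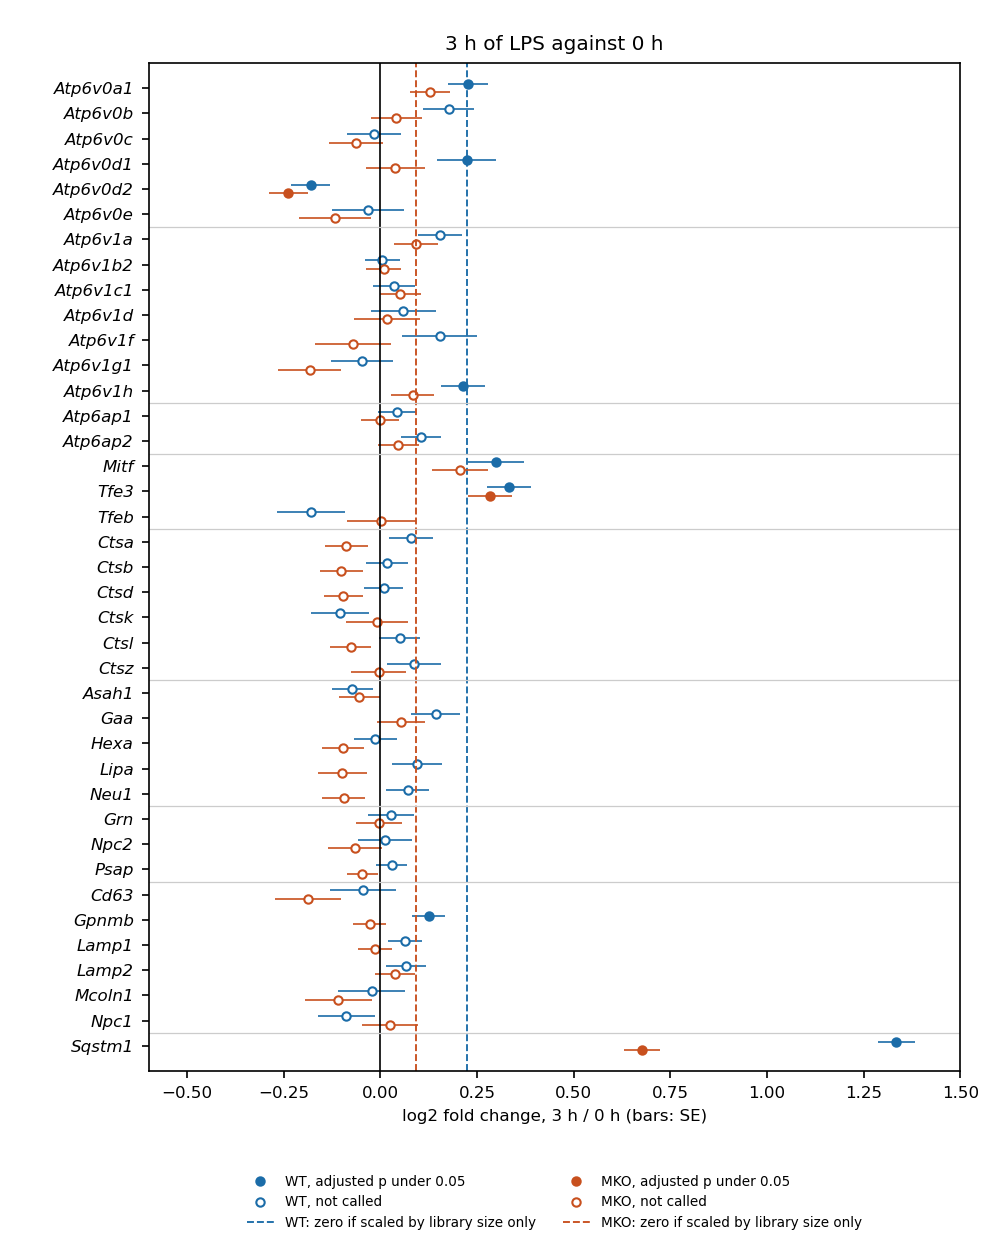
Log2 fold change of 3 h over 0 h of LPS with its SE for each of the 39 genes, in WT (blue) and MKO (orange), filled where called. Dashed lines mark where 0 would lie with scaling by library size alone, so that most points would then lie on the lower side. Sqstm1, at 1.33 in WT and 0.68 in MKO, stands far to the right of all others, and Atp6v0d2 lies left of 0 in both genotypes.

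Sqstm1 was at 438, 447 and 426 CPM in WT at 0 h, where MKO had 552, 537 and 582 CPM. At 3 h WT had 1085, 1090.1 and 1133 CPM and MKO had 886, 877 and 907 CPM. It rose in WT by 1.33 (SE 0.047, adjusted p = 1.0e-11) and in MKO by 0.68 (SE 0.047, adjusted p = 5.9e-08), folds of 2.52 and 1.60, with no overlap between times. The change was smaller in MKO: the interaction of genotype and LPS was -0.66 (SE 0.066, adjusted p = 1.7e-05), in a test that called 6.80% of all genes (2.39% positive and 4.41% negative). MKO libraries lay above WT libraries at 0 h (0.35, SE 0.047, adjusted p = 5.7e-05). They lay below at 3 h (-0.31, SE 0.046, adjusted p = 0.00011), where scaling by library size alone gave -0.059 and no call. The interaction was -0.53 under that scaling and still called.

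Among the transcription factors, Tfe3 rose with LPS in both genotypes and Mitf in WT, though in WT neither was called with scaling by library size alone (0.11 and 0.074). The changes of Tfe3 were 0.33 (SE 0.057, adjusted p = 0.00035) in WT and 0.28 (SE 0.057, adjusted p = 0.0030) in MKO, and every 3 h library was above every 0 h library of its genotype. Mitf rose by 0.30 (SE 0.072, adjusted p = 0.0050) in WT and was at 0.20 (adjusted p = 0.072) in MKO, and Tfeb was at -0.18 (adjusted p = 0.14) and 0.00 (adjusted p = 0.99). When replicates 1 and 2 were summed, Mitf in WT and Tfe3 in MKO were not called. The interaction was not called for Tfe3 (-0.05, adjusted p = 0.83), Mitf (-0.09, adjusted p = 0.71) or Tfeb (0.18, adjusted p = 0.51), which does not show that the changes were alike.

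Of the 15 pump subunit genes 3 rose and 1 fell in WT and 0 and 1 in MKO, or 0 and 8, and 0 and 2, when scaled by library size. The first counts were 20% and 6.67% in WT, beside 17.8% and 14.6% of all genes, so that the share of rises was close to theirs. For MKO they were 0% and 6.67%, beside 9.75% and 6.08%. Under library size scaling 9.70% of all genes rose and 41.8% fell in WT, and 6.72% and 14.1% did in MKO. Atp6v0d2 fell in both genotypes, by 0.18 (SE 0.051, adjusted p = 0.014) in WT and 0.24 (SE 0.050, adjusted p = 0.0044) in MKO. In WT Atp6v0a1 rose by 0.23 (SE 0.052, adjusted p = 0.0037), Atp6v1h by 0.21 (SE 0.056, adjusted p = 0.0087) and Atp6v0d1 by 0.22 (SE 0.077, adjusted p = 0.038), and none of the 3 was called in MKO (0.13, 0.08 and 0.04). No interaction was called among the 15 pump genes. Scaled by library size, the 3 rises were 0.0019, -0.0096 and -0.0035, none called. Summing replicates 1 and 2 ended these 3 calls and both of Atp6v0d2. The fall of Atp6v0d2 in WT was also lost without replicate 1 or 2 of WT 0 h (adjusted p 0.052 to 0.073). The rise of Atp6v0d1 was lost without replicate 1 or 2 of WT 0 h, or any replicate of WT 3 h, or replicate 1 or 2 of MKO 3 h (adjusted p 0.053 to 0.18).

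No cathepsin, hydrolase or lumenal cofactor gene was called in either LPS comparison, but most fell when scaled by library size. In WT and then MKO, Ctsb was at 0.02 (adjusted p = 0.85) and -0.10 (adjusted p = 0.24), with Ctsd at 0.01 (adjusted p = 0.93) and -0.10 (adjusted p = 0.22), Ctsl at 0.05 (adjusted p = 0.53) and -0.08 (adjusted p = 0.36). Ctsk was at -0.11 (adjusted p = 0.32) and -0.01 (adjusted p = 0.96), Grn at 0.03 (adjusted p = 0.77) and -0.00 (adjusted p = 0.98), and Npc2 at 0.01 (adjusted p = 0.92) and -0.07 (adjusted p = 0.57). Gpnmb rose in WT by 0.12 (SE 0.043, adjusted p = 0.040), a call lost without replicate 2 or 3 of WT 0 h, or any replicate of WT 3 h, or replicate 1 of MKO 0 h, or replicate 1 or 2 of MKO 3 h (adjusted p 0.052 to 0.13). Scaled by library size, Ctsb, Ctsd, Ctsl, Ctsk, Grn, Npc2, Gpnmb and Lamp1 were called lower at 3 h in WT, from -0.33 for Ctsk to -0.10 for Gpnmb.

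Sqstm1 was the 1 gene of the 39 with a called interaction. A positive interaction was called for 0 genes by edgeR's quasi-likelihood test, for 0 at an unadjusted p under 0.05, and for 0 by DESeq2. The interaction of Sqstm1 was called under all alternatives run. Without replicate 3 of WT 0 h 2 negative interactions were called. Without both libraries that stand apart 1 was positive and 5 were negative. The positive was that of Atp6v0c (0.11), whose LPS change in that fit was -0.080 in WT and 0.031 in MKO. Those of Atp6v0d1 (-0.23), Mitf (-0.20), Gpnmb (-0.12), Lipa (-0.29) and Sqstm1 (-0.60) were negative, and Lipa rose in WT (0.19) and fell in MKO (-0.11).

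Genes of the same pathways outside the set came from lists chosen with earlier results of these data known. Their counts stand beside 16.4% lower and 16.5% higher of all genes at 0 h and 23.0% and 19.8% at 3 h, or 9.59% and 25.8%, and 9.63% and 43.5%, when scaled by library size. Of 41 other hydrolases and lumenal proteins tested (of 42), 14 were lower in MKO and 3 higher at 0 h, and 19 and 3 at 3 h, or 7 and 7 and 6 and 14 with scaling by library size alone. Ctsc, the dipeptidyl peptidase gene that activates serine proteases of granules, was lower, at -0.80 (SE 0.066, adjusted p = 8.8e-07) and -0.91 (SE 0.066, adjusted p = 1.0e-07). Lgmn, the asparaginyl endopeptidase gene, was at -0.77 (SE 0.063, adjusted p = 8.8e-07) and -0.80 (SE 0.063, adjusted p = 2.3e-07). The phosphatase gene Acp2 was lower, at -0.77 (SE 0.054, adjusted p = 1.7e-07) and -0.57 (SE 0.054, adjusted p = 1.3e-06). The cathepsin gene Ctsf was higher by 1.08 (SE 0.12, adjusted p = 1.5e-05) at 0 h. Of 39 other membrane protein genes 13 were lower and 7 higher at 0 h, and 14 and 9 at 3 h, or 8 and 9, and 4 and 16, with library size scaling. Hgsnat, an acetyltransferase gene for heparan sulfate breakdown, was lower, at -0.73 (SE 0.053, adjusted p = 2.3e-07) and -0.67 (SE 0.053, adjusted p = 2.1e-07).

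Among the other pump subunits and assembly factors 14 of 20 were tested, and 3 were lower and 0 higher at 0 h, and 4 and 0 at 3 h, or 1 and 2, and 2 and 4, with library size scaling. Vma21, which encodes an assembly chaperone of V0, was lower, at -0.29 (SE 0.061, adjusted p = 0.0023) and -0.53 (SE 0.061, adjusted p = 8.9e-06). Tcirg1, the a3 form of the large V0 subunit, was lower in MKO at 3 h, at -0.26 (SE 0.056, adjusted p = 0.00195). It rose with LPS in WT by 0.37 (SE 0.057, adjusted p = 0.00012) and was at 0.01 (adjusted p = 0.93) in MKO, with an interaction of -0.36 (SE 0.080, adjusted p = 0.012). The kidney and inner ear forms Atp6v0a4 and Atp6v1g3 had no count. Of 34 genes that regulate mTORC1 and TFEB, 5 were lower and 2 higher at 0 h, and 5 and 10 at 3 h (2 and 8, and 2 and 20, with library size scaling). These were 14.7% lower and 5.88% higher of the list at 0 h, neither above the shares of all genes (16.4% and 16.5%). At 3 h they were 14.7% lower and 29.4% higher, beside 23.0% and 19.8% of all genes, so that the higher share was above. The 8 and 20 of 34 higher with library size scaling stand beside 25.8% and 43.5% of all genes. Flcn, whose product enables mTORC1 to phosphorylate TFEB, fell with LPS in WT by 0.93 (SE 0.069, adjusted p = 6.0e-08) and in MKO by 0.25 (SE 0.067, adjusted p = 0.020), and was higher in MKO at 3 h by 0.50 (SE 0.069, adjusted p = 4.9e-05). Sesn1, a leucine sensor gene, fell by 1.03 (SE 0.062, adjusted p = 5.4e-09) in WT and 0.45 (SE 0.061, adjusted p = 8.1e-05) in MKO. Lamtor1, which anchors the mTORC1 platform to lysosomes, was lower in MKO, at -0.56 (SE 0.077, adjusted p = 8.0e-05) at 0 h.

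Of 39 autophagy genes tested 15 were higher in MKO and 4 lower at 0 h, and 15 and 11 at 3 h, or 19 and 1, and 26 and 2, with library size scaling. As shares of the list, 38.5% were higher and 10.3% lower at 0 h, beside 16.5% and 16.4% of all genes, and the 26 higher at 3 h stand beside 43.5% of all genes called higher under that scaling. The ubiquitin-like autophagy gene Gabarapl1 was higher by 0.87 (SE 0.064, adjusted p = 2.8e-07) and 0.84 (SE 0.065, adjusted p = 1.7e-07), and Wipi1, which encodes a phosphoinositide-binding protein of forming autophagosomes, by 0.84 (SE 0.080, adjusted p = 3.0e-06) at 0 h. Optn, another ubiquitin-binding autophagy receptor gene, rose with LPS by 1.81 (SE 0.11, adjusted p = 5.2e-09) in WT. Its change in MKO was smaller, with an interaction of -0.81 (SE 0.15, adjusted p = 0.0038), and the genotypes overlapped at 0 h. Of 26 lysosomal trafficking genes 7 were lower and 2 higher at 0 h, and 10 and 4 at 3 h (2 and 5, and 1 and 15, with library size scaling), with the sorting receptor gene Sort1 higher by 0.72 (SE 0.12, adjusted p = 0.00028) and 0.72 (SE 0.12, adjusted p = 0.00020).

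Of the 8 macrophage markers 4 were lower in MKO and 1 higher at 0 h, and 5 and 0 at 3 h, or 3 and 1, and 4 and 2, with library size scaling. Of all genes 16.4% were lower and 16.5% higher at 0 h, and 23.0% and 19.8% at 3 h. With library size scaling these shares were 9.59% and 25.8%, and 9.63% and 43.5%. The 1 marker called higher at 0 h was at 0.34. Adgre1 was at -0.75 and -0.59 and the Fc receptor gene Fcgr1 at -0.95 and -1.02, while Itgam (-0.06 and 0.02) and Csf1r (-0.08 and -0.04) were not called. The markers summed to 8746 to 8978 CPM in 0 h WT against 6632 to 6771 CPM in MKO, and 9879.8 to 10242 and 7466 to 7636 at 3 h. The part of these markers in the lower cathepsin, Grn and Npc2 levels was not tested.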

How the data were processed

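Total RNA was extracted in TRIzol and sequenced with standard Illumina libraries, per the labels' protocols. The submitters' processing notes name fastp and the mm10 build. Neither the aligner and counter nor strand use and annotation release are named in the sources used here. The authors deposited 1 table with counts per gene, not normalized, and TPM, per the file headers. Counts were tested, and TPM were used for levels between genes, sums and ratios.

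Samples were grouped by their titles. Counts were filtered by filterByExpr, scaled by TMM and fitted in 1 model over 12 libraries, a mean per group, with the quasi-likelihood test of edgeR 4.0.16 (R 4.3.3), with Benjamini-Hochberg adjustment over 12455 genes of 19195 with any count. The SE was taken as the size of the log2 change over the root of its F statistic. The fit was also run on simulated counts, with the same spread for every gene and no library that stands apart. That run therefore cannot show how the fit behaves on these libraries.

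Replicates of a group differed by more than sampling noise, with a chi-square over its degrees of freedom of 1.92 to 2.62 between replicates 1 and 2 and 2.97 to 26.3 in the other pairs.

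The 39 genes and the other lists were chosen with earlier results of these data known. Values in every library are given for 15 genes, Tfeb, Tfe3, Mitf, Lamp1, Ctsd and those among the 6 largest called changes of a comparison at a mean of at least 1 CPM, and for others where the spread between libraries bears on the result. Other lists give up to 4 called genes with the smallest p per comparison, fewer where space asked. Gene coordinates are those of the deposited table. Promoter windows come from RefSeq (GRCm38.p6), and overlapping exons were taken from GENCODE M21, which held 99.3% of the gene IDs. Alternatives were RLE scaling, library size only, DESeq2 1.42.0, no filter, a mean of at least 5 CPM, a replicate block, only the groups compared, each library left out in turn, both 0 h libraries that stand apart left out, and replicates 1 and 2 summed.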

Additional observations from a re-analysis of the deposited data

Results flagged for a closer look

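Sqstm1, the gene of the autophagy receptor p62, responded to LPS by a different amount in the genotypes: the test of the difference itself, an interaction in edgeR's quasi-likelihood fit, gave -0.66 (SE 0.066, adjusted p = 1.7e-05), with a rise of 1.33 in WT and 0.68 in MKO. It was higher at 3 h than at 0 h in 3 of 3 libraries of each genotype.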

How the results depend on the processing

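Counts of the 39 genes called moved with the scaling, with the libraries that stand apart and with the summing of replicates. With library size only, 1 gene was higher and 26 lower for LPS in WT, 13 lower for LPS in MKO, 8 higher and 8 lower for genotype at 0 h, and 10 higher and 5 lower at 3 h. Signs turned under it for 17 genes for genotype at 3 h, of which 8 were called as reported and 5 under that scaling, for 24 for LPS in WT (3 and 15), and, with no call under either, for 7 for genotype at 0 h, 11 for LPS in MKO and 23 for the interaction. Among them were, for genotype at 3 h, Atp6ap2 (0.075), Atp6v0a1 (0.19), Atp6v0b (0.021), Atp6v0e (0.00011), Atp6v1b2 (0.12), Ctsz (0.030), Lamp2 (0.085), Psap (0.11) and Tfe3 (0.0061), and, for LPS in WT, Atp6v0d1 (-0.0035), Atp6v1h (-0.0096), Ctsb (-0.21), Ctsd (-0.22), Ctsl (-0.17), Gpnmb (-0.10), Grn (-0.20), Lamp1 (-0.16) and Npc2 (-0.21). Without scaling factors the median of all genes is not set near 0, and which of the scalings is nearer the truth was not tested. When the fit held just the groups compared, 8 genes were lower at 0 h and 5 higher at 3 h. Without both libraries that stand apart, 5 were lower for LPS in WT, 3 for LPS in MKO and 26 for genotype at 0 h, 5 were higher for genotype at 3 h, and 1 was higher and 5 lower for the interaction. With replicates 1 and 2 summed, 2 were higher and 0 lower for LPS in WT, 1 and 0 for LPS in MKO, 3 and 4 for genotype at 0 h, and 1 and 15 at 3 h, where fewer samples enter the fit.

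Leaving out each library in turn gave 5 to 9 higher and 0 to 2 lower genes for LPS in WT, 2 to 3 and 1 to 2 for LPS in MKO, 5 to 5 and 8 to 21 for genotype at 0 h, 2 to 4 and 17 to 26 at 3 h, and 0 to 0 and 1 to 2 for the interaction. RLE scaling, DESeq2 and both other filters kept these counts within 1.5 times of the values reported. With the replicate block 6 and 1, 2 and 1, 5 and 14, 3 and 25, and 0 and 1 genes were called in the order above. Of 18 correlations between deviations of same-numbered libraries, from -0.337 to 0.0777, 0 were over 0.1. Of 36 between differently numbered libraries, from -0.157 to 0.262, 4 were. Deviations from the mean of 3 libraries depend on each other, so these values cannot tell whether replicate numbers pair the samples. What depth and the number of libraries limit was not tested.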
